A study of Mus musculus with 2 samples.

Results

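Transcripts of 10 genes of ROCK, CDC42 and actin assembly signalling were described in an RNA immunoprecipitation (RIP) of YTHDF2: Rock1, Rock2, Ppp1r12a, Ppp1cb, Pak3, Cdc42, Cfl2, Arpc5, Wasf1 and Abi2. They were taken by name from the authors' gene table, so these 10 were chosen out of 1285 genes that have a peak there, and every one has a table peak by construction. Their 17 peaks in that table were joined by all other peaks of the whole list that overlap their gene bodies, which gave 60 of 9271 peaks. The pulldown was 1 YTHDF2 RIP library, set against 1 input library. Both came from wild-type C2C12 myotubes with no added treatment and carried batch label 1. C2C12 is a line of mouse myoblasts whose cells fuse to form myotubes, here over 4 to 5 days in 2% horse serum after reaching 90% confluence. The labels also list 10% fetal bovine serum (FBS) for both libraries. The series also mentions an IgG control, not analysed here. With 1 library on each side there was no replicate and no test, and all values below are descriptions of these libraries.

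YTHDF2 is a cytoplasmic protein that reads N6-methyladenosine (m6A), a methyl mark on adenosine in messenger RNA, and recruits the deadenylation machinery that shortens the poly(A) tail. CDC42 and RHOA are small GTPases that switch between active and inactive forms. Active RHOA turns on the ROCK kinases, which raise myosin light chain phosphorylation in part by inhibiting myosin phosphatase. Active CDC42 turns on PAK kinases and, with RAC1, signals to the WASP and WAVE complexes, which start branched actin filaments through the Arp2/3 complex, while cofilins sever old filaments. In muscle cells this machinery shapes the cytoskeleton during fusion and the assembly of myofibrils.

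Fold enrichment is the authors' value for each peak: the RIP pileup at the summit over the local input background, with 1 added to each. The number of RIP fragments was read from the pileup, and the interval after each fold is an exact 95% Poisson interval of those fragments. It holds the background fixed and covers counting error only, since PCR copies are not independent molecules. Positions are 1-based on mm10. The depth of both libraries is unknown, so a difference between genes in input background mixes RNA level with everything else that sets coverage.

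Short stretches of the peaks are printed first, read 5′ to 3′ on the strand of the gene from the mm10 genome, because they show which bases the peaks cover. The GGAC core is common to many m6A sites. Capitals mark GGAC in the 5 stretches around the copy nearest the summit.
Rock2 exon 1, chr12:16895233-16895262 (+): agaccgcgccgggGGACggggcgggcgccg
Rock2 exon 27, chr12:16973100-16973129 (+): cagtataggcagtGGACcaggcgatgctga
Ppp1cb 3′ UTR, chr5:32492088-32492117 (+): acgctggtcagtgGGACatttgtcagctct
Cdc42 3′ UTR, chr4:137320390-137320419 (-): catgaaggtgggtGGACgctgtctcgcccc
Arpc5 3′ UTR, chr1:152775298-152775327 (+): tgtttacttcgttGGACaaaccaaattgat

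The start codon of Rock2 and the stop codon of Wasf1, in capitals in the next pair, are the only translation start and stop that the authors' table marks among the 17 peaks.
Rock2 start codon, chr12:16895176-16895205 (+): cccggcgaagcggcATGagccggcccccgc
Wasf1 stop codon, chr10:40937787-40937816 (+): tagactggctggagTAAgaaagccacagtg

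Peaks listed as coding can run past the end of an exon. The peaks of Rock2 exon 9 and Abi2 exon 8 are shown whole for that reason, with exon bases in capitals and intron bases in lower case. The Rock2 peak held 132 exon and 62 intron bases, and the Abi2 peak held 126 exon and 131 intron bases.
Rock2 exon 9, chr12:16953289-16953482 (+): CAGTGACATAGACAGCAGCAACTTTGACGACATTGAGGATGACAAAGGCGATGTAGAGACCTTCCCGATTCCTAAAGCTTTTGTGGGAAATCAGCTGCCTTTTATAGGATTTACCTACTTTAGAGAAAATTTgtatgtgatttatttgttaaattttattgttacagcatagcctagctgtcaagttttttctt
Abi2 exon 8, chr1:60450128-60450384 (+): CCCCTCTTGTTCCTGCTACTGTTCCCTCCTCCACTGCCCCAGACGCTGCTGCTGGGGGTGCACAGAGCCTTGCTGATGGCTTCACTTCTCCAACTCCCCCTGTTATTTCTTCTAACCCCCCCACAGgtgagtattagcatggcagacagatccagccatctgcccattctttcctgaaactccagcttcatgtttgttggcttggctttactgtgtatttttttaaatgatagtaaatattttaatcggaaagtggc

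GGACT, a longer form of that core, is marked in 4 intron peaks, shown because GGACT was in 11 of the 42 intron windows and in 1 of the 17 table windows.
Rock2 intron 1, chr12:16912068-16912097 (+): tatttctaGGACTtgcttgatggtttatgt
Rock2 intron 17, chr12:16960672-16960701 (+): acacatgtagaaaatGGACTgacttctgtt
Ppp1r12a intron 1, chr10:108190274-108190303 (+): tggccttgataGGACTtgtgtcactagact
Pak3 intron, chrX:143620425-143620454 (+): tgaagcccccgaGGACTcctaagctggcac

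The ROCK kinases held 27 of the 60 peaks and 9 of the 17 in the gene table. Rock1 and Rock2 encode kinases that phosphorylate the myosin phosphatase targeting subunit and LIM kinases. Rock1 lies on chromosome 18 from 10064401 to 10182045, on the minus strand, and has 33 exons in the transcript used. Its table peak of highest fold, in coding exon 19 from 10097445 to 10097639, had 34 RIP fragments over an input background of 4.00, a fold enrichment of 6.32 (95% counting interval 4.44 to 8.75). The peak in exon 20, from 10095411 to 10095604, had 17 fragments over 2.00, at 5.43 (3.30 to 8.50). These 2 coding peaks rested on few fragments, and their intervals overlap.

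Rock1 also had a peak in the 5′ UTR, in exon 1 from 10181324 to 10181666, with 148 fragments over a background of 56.0. Its fold was 2.35 (1.99 to 2.76), lower than in both coding exons with no overlap of the intervals. Those folds stand at unlike backgrounds, and peaks at low background were listed only at higher folds. Ranked among peaks of like background, as described below, the 5′ UTR peak stood at the 66.9th percentile. By that rank exon 19 stood at the 86.8th and exon 20 at the 42.2nd. The RIP fragments were most numerous at the 5′ end, where the input background was also highest. No Rock1 peak was listed in the 3′ UTR, which spans 1647 bases in the transcript used.

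Rock2 lies on chromosome 12 from 16894895 to 16987823, on the plus strand, and is shorter than Rock1, at 92929 against 117645 bp. It had 6 table peaks, and only 4 genes of the table reached that number, while 1067 genes had 1 and 46 had 3 or more. The strongest, in exon 9 and printed above, had 65 fragments over 15.0 and a fold of 3.72 (2.88 to 4.72). The peak at exon 27, from 16973098 to 16973293, had 41 fragments over 10.8, at 3.22 (2.33 to 4.33). Only 26.5% of that peak lay in the exon, and its summit was in intron 27.

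Another Rock2 peak listed as coding, from 16948491 to 16948980, had 65 fragments over 34.0 and a fold of 1.70 (1.32 to 2.16). It reached into exon 6 with 22.9% of its length. The start codon peak, from 16894963 to 16895495, had 152 fragments over 69.0, at 1.97 (1.67 to 2.31). It was the GC-richest of the 60 peaks, at 77.9%.

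In the 3′ UTR, the Rock2 peak from 16987334 to 16987529 had 144 fragments over 86.0, at 1.50 (1.27 to 1.77), and lay 2736 bases after the stop codon. The other peak listed as 3′ UTR, from 16979873 to 16980156, had 29 fragments over 9.39, at 2.61 (1.78 to 3.70). It falls in an exon of a shorter transcript and in intron 32 of the main one. Of the 6 Rock2 peaks, 4 thus crossed an exon edge, and the highest fold was in the middle of the gene rather than at either end.

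The highest table fold of Rock1, at 6.32, was above that of Rock2, at 3.72, with intervals that overlap narrowly (4.44 to 8.75 for Rock1, 2.88 to 4.72 for Rock2). At their 5′ ends the 2 genes were close, at 2.35 for Rock1 and 1.97 for Rock2, and those intervals overlap as well. The 5′ peaks of both had more than 100 fragments over backgrounds of 56.0 and 69.0.

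**Figure D1:**
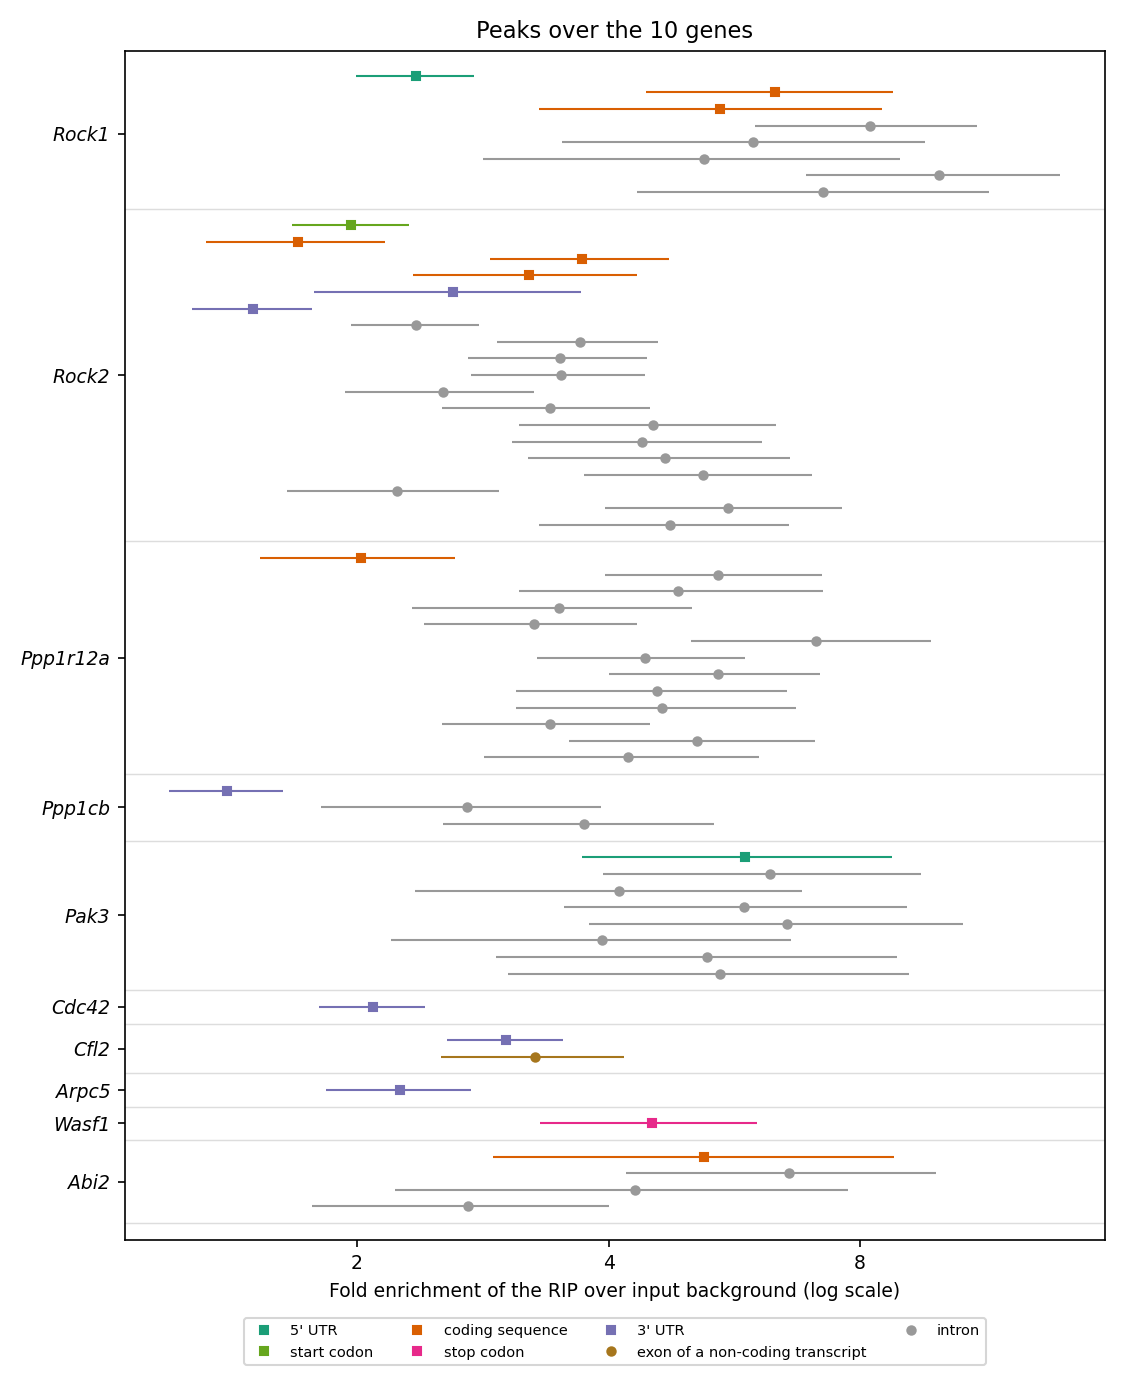
Fold enrichment of the YTHDF2 RIP over input background (log axis) for all 60 peaks, 1 row a peak, grouped by gene, with coloured squares for peaks of the gene table, grey circles for intron peaks and a brown circle for the Cfl2 peak in an exon of non-coding transcripts. Lines are 95% counting intervals of the RIP fragments. The highest point is a Rock1 intron peak at 9.93, and the lowest is the Ppp1cb 3′ UTR peak at 1.40.

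By the highest table peak of each gene, the myosin phosphatase subunits had the lowest folds of the 10 genes. Ppp1r12a encodes the targeting subunit MYPT1, which ROCK kinases phosphorylate, and lies on chromosome 10 from 108162193 to 108284475. Its only table peak, at coding exon 14 from 108253366 to 108253600, had 55 fragments over 24.0, a fold of 2.02 (1.53 to 2.62). Ppp1cb encodes the catalytic subunit that MYPT1 binds, and lies on chromosome 5 from 32458843 to 32517433. Its table peak, in the 3′ UTR from 32492049 to 32492237 and 994 bases after the stop codon, had 162 fragments over 104.0. That is the lowest fold among the 17 table peaks, 1.40 (1.19 to 1.63), at the highest background.

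CDC42 and PAK3 stand at the head of the branch that runs to cofilin and branched actin. Cdc42 lies on chromosome 4 from 137319696 to 137357720, on the minus strand, and had 1 peak over its whole body, in the 3′ UTR from 137320254 to 137320712. That peak had 187 fragments, the most of the 60, over a background of 80.0, with a fold of 2.09 (1.80 to 2.41). It lay 684 bases after the stop codon. A second place in the genome matched it at 92.4% identity, and whether the alignment kept reads of the copies apart is not given.

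Pak3 encodes a p21-activated kinase, an effector of CDC42 and RAC1 best known from neurons, and is the longest of the 10 genes, at 279206 bp on the X chromosome from 143518591 to 143797796. Its table peak, listed in the 5′ UTR from 143665569 to 143665785, had 21 fragments over 2.42, at 5.82 (3.72 to 8.75). The peak lay 40.6% in an exon of the annotated transcripts, and its summit lay outside that exon. Pak3 was thus second in fold among the 10 genes with 21 fragments, and Cdc42 eighth with 187.

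Cfl2, Arpc5 and Wasf1 had a table peak in the 3′ UTR or at the stop codon, and Abi2 had one inside the gene. Cfl2 encodes the muscle cofilin and is the shortest gene, 4069 bp on chromosome 12 from 54858809 to 54862877. Its 3′ UTR peak, from 54859413 to 54859604 and 1628 bases after the stop codon, had 153 fragments over 45.0, at 3.02 (2.56 to 3.53). It had the smallest q-value of the 17 table peaks, with −log10 q of 22.8. A further Cfl2 peak lay near the gene start, from 54862440 to 54862634, in an exon of 2 non-coding transcripts, with 62 fragments over 16.4, at 3.27 (2.52 to 4.18).

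Arpc5 encodes a subunit of the Arp2/3 complex and lies on chromosome 1 from 152766542 to 152775597. Its 1 peak, in the 3′ UTR from 152775203 to 152775409, had 99 fragments over 39.0, at 2.25 (1.84 to 2.74). It lay 1005 bases after the stop codon, and 1 other place in the genome matched it at 93.8% identity. Like Cdc42, Arpc5 had no intron peak.

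Wasf1 and Abi2 encode subunits of the WAVE regulatory complex, which passes the signal of RAC1 to Arp2/3. Wasf1 lies on chromosome 10 from 40883475 to 40938570, and its 1 peak spanned the stop codon from 40937689 to 40937890. That peak had 44 fragments over 8.00, at 4.51 (3.31 to 6.02), with its summit 10 bases after the stop codon. Abi2 lies on chromosome 1 from 60409619 to 60481158. Its exon 8 peak had 12 fragments over 1.26, at 5.21 (2.91 to 8.77), the fewest fragments of the 17.

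By highest table fold the order was Rock1, Pak3, Abi2, Wasf1, Rock2, Cfl2, Arpc5, Cdc42, Ppp1r12a and Ppp1cb. The intervals of each neighbouring pair overlap, so no neighbours in this order were resolved. By the smallest q-value of any table peak of a gene, which also weighs the number of fragments, the order began with Cfl2, Rock1, Cdc42 and Rock2. It ended with Abi2, Ppp1r12a and Ppp1cb. For Rock1 that was the 5′ UTR peak, with −log10 q of 13.7, and not exon 19. The exon 19 peak had 12.6, below 13.1 for Cdc42 and 12.8 for Rock2. The genes at the top of the first list had low backgrounds: 4.00 for Rock1, 2.42 for Pak3 and 1.26 for Abi2. The lowest background of any peak in the whole list was 1.08.

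Fold and background move against each other in part by construction, since background, with 1 added, is the divisor of fold. The median fold of the 17 table peaks was 2.61 (quartiles 2.02 and 4.51) at a median background of 24.0, beside 3.25 (2.42 and 4.53) over 15.0 for all 1541 table peaks. To set like beside like, each peak was ranked among the peaks whose background was within a factor of 1.5 of its own, a range chosen after seeing the data. The lowest fold listed in that range was 1.34 for the Ppp1cb table peak and 3.40 for that of Abi2, so peaks at low background were listed only at higher folds. By that rank 7 of the 17 were above the middle. Cfl2 stood at the 88.9th percentile, Rock1 exon 19 at the 86.8th and Rock2 exon 9 at the 74.2nd. The Wasf1 stop codon stood at the 72.7th, Cdc42 at the 70.5th, the Rock1 5′ UTR at the 66.9th and Pak3 at the 62.7th. Abi2, the third by fold, stood at the 18.3rd percentile. The lowest were Rock2 exon 6 at 1.51, Ppp1cb at 2.58, the last Rock2 3′ UTR peak at 6.77 and Ppp1r12a at 7.43.

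**Figure D2:**
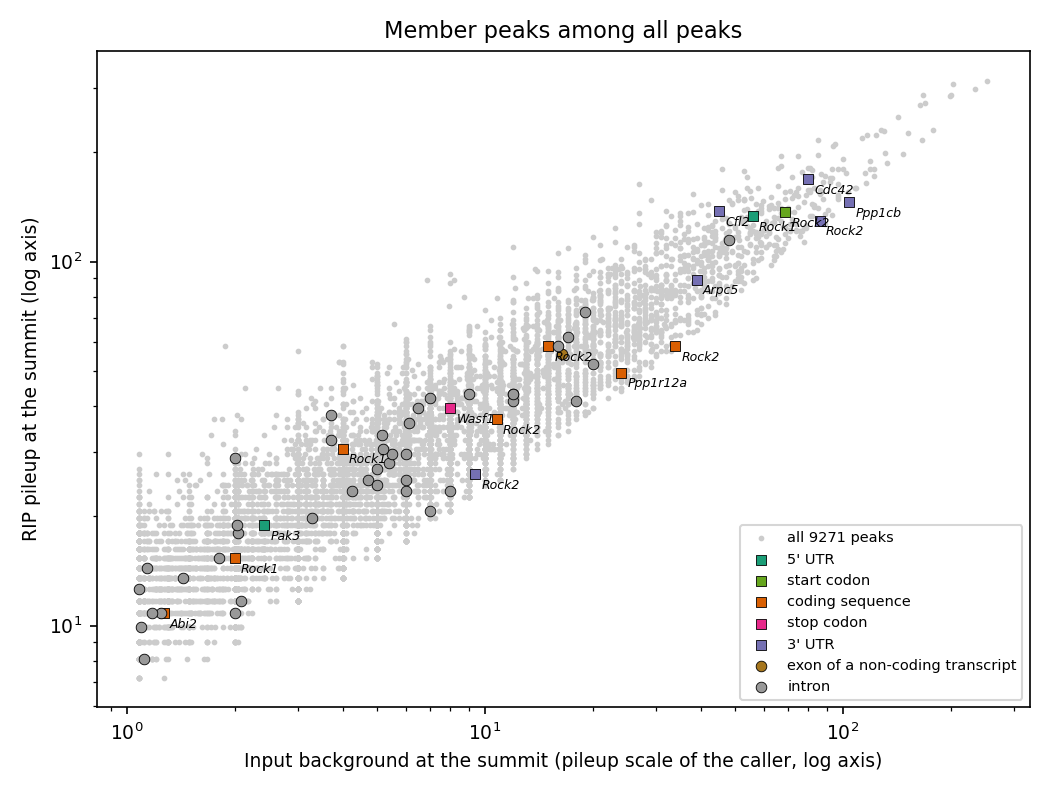
RIP pileup at the summit against input background, both on the pileup scale of the caller and on log axes, for all 9271 peaks in grey, with the 60 peaks of the 10 genes drawn over them by element and the table peaks labelled. Cfl2 and the exon 19 peak of Rock1 lie high for their background, at the 88.9th and 86.8th percentiles. The exon 6 peak of Rock2 and the Ppp1cb peak lie near the lower edge of the cloud, at 1.51 and 2.58.

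Among all genes, protein-coding genes with a peak in the gene table made up 5.81% of all 21951 in the annotation, and 15.0% had a peak anywhere over the gene body. Of genes of 50000 bp or more, 9.29% had a table peak and 34.5% a body peak (a length chosen after seeing the data). Since the 10 genes were chosen for having a table peak, nothing is read from their 10 of 10. The 10 genes run from 4069 to 279206 bp, and the 3 genes with a single peak over the body had 9056 bp (Arpc5), 38025 bp (Cdc42) and 55096 bp (Wasf1).

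Most of the peaks over these genes were in introns: 42 of 60, or 70.0% (Wilson 95% interval 57.5 to 80.1). Over all protein-coding genes the share was 77.4% (76.5 to 78.3), and the intervals overlap. These genes were chosen for a table peak, and each of their table peaks touches an exon, which lowers their intron share by construction. The share of all genes also covers genes with no table peak. Peaks of the same gene are not independent either, so nothing is read from this comparison. Rock2 had 13 intron peaks, Ppp1r12a 12, Pak3 7, Rock1 5, Abi2 3 and Ppp1cb 2, while Cdc42, Cfl2, Arpc5 and Wasf1 had none. With all peaks counted, Rock2 reached 19, the 20th highest number among protein-coding genes, and Ppp1r12a 13, the 65th. The density was 20.4 peaks per 100 kb in Rock2 and 6.80 in Rock1. None of the 60 peaks overlapped another annotated gene. DNase treatment, cDNA synthesis and strandedness are not given in the labels' protocols, so intron fragments of unspliced RNA and of DNA cannot be told apart, and the strand of a motif is that of the annotated gene.

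The median fold of the 42 intron peaks was 4.61 (quartiles 3.55 and 5.43) at a median background of 5.18, beside 4.63 over 4.09 for all intron peaks. In each of the 6 genes that had intron peaks, the highest fold over the whole body was in an intron. That sets unlike numbers of peaks side by side, at a median background of 5.18 against 24.0 for the 17 table peaks. Since only higher folds are listed at low background, it is no measure of stronger binding in introns. The highest was in intron 12 of Rock1, from 10113761 to 10114214, with 32 fragments over 2.00, a fold of 9.93 (6.90 to 13.9). A peak in intron 2 of Rock1 had 42 fragments over 3.72, at 8.22 (5.98 to 11.0). At like background these 2 stood at the 98.3rd and 97.0th percentiles, above every table peak of the 10 genes.

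In Ppp1r12a, the peak of intron 3 from 108223674 to 108224001 had 36 fragments over 3.72 and a fold of 7.08 (5.02 to 9.72), against 2.02 (1.53 to 2.62) in its exon 14. All 12 Ppp1r12a intron peaks were above the exon peak, from 3.26 to 7.08, at backgrounds of 3.29 to 12.0 against 24.0. Abi2 had 21 fragments over 2.03 in intron 1, at 6.57 (4.19 to 9.87). The 7 Pak3 intron peaks had 12 to 20 fragments and folds of 3.93 to 6.53, and 6 of them lay upstream of the first exon of the transcript used, inside longer gene models.

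The other intron peaks were spread over the same range. The remaining 3 of Rock1 had 11 to 16 fragments over backgrounds of 1.10 to 1.43, with folds of 5.20, 5.96 and 7.21. Among the 13 of Rock2, the highest fold was in intron 17, with 37 fragments over 5.17, at 5.56 (3.96 to 7.60), and the lowest was 2.23 (1.65 to 2.96), with 46 fragments over 18.0. Of these 13, 6 lay in intron 1 and 4 in intron 3. Ppp1cb had an intron peak of 26 fragments at 2.71 (1.81 to 3.92) and another of 28 at 3.74 (2.54 to 5.35), the second beyond the end of the transcript used. Both folds were above that of its 3′ UTR peak, with far fewer fragments than the 162 there. The further Abi2 peaks had 9 fragments, at 4.30 (2.22 to 7.74), and 23 fragments, at 2.71 (1.77 to 4.01).

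Of the intron peaks, 16 were annotated as repeat over more than 50% of their length. Only 1, in Ppp1r12a, had near copies elsewhere in the genome, 79 places at up to 91.3% identity. Of the 17 table peaks, 2 had a copy, those of Cdc42 and Arpc5 named above. Copies were counted at 90% identity or more over 90% of the peak.

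Along Rock2 the intron peaks were not alike. The 5 within the first 20 kb of the gene, a limit chosen after seeing the data, had 58 to 127 RIP fragments over backgrounds of 16.0 to 48.0, and folds of 2.35 to 3.70. The 8 farther on had 30 to 48 fragments over 5.00 to 18.0, and folds of 2.23 to 5.56. Spearman's correlation between background and distance from the gene start was -0.68 over these 13 peaks, and that of fold was 0.57. Background is the divisor of fold, so the second correlation is not independent of the first. The points share 1 library pair and 1 gene, so these are descriptions.

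The same slope was not seen in every gene. In Ppp1r12a the correlation of background with distance was 0.04 over 12 peaks, with backgrounds of 3.29 to 12.0. In Pak3 it was -0.68 over 7 peaks, within a narrow range of 1.08 to 2.08, and in Rock1 it was -0.50 over 5 peaks. A background of 1.08 was also the lowest in the whole list of 9271 peaks. The same lowest value, 1.08, recurred among all stop codon, start codon, coding, 3′ UTR and 5′ UTR peaks of the gene table. Whether values near it are local coverage or a floor of the caller was not tested. Rock2 had a higher input background at its intron peaks, with a median of 12.0 over 13 peaks against 1.43 over the 5 of Rock1. Background away from peaks was not measured.

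**Figure D3:**
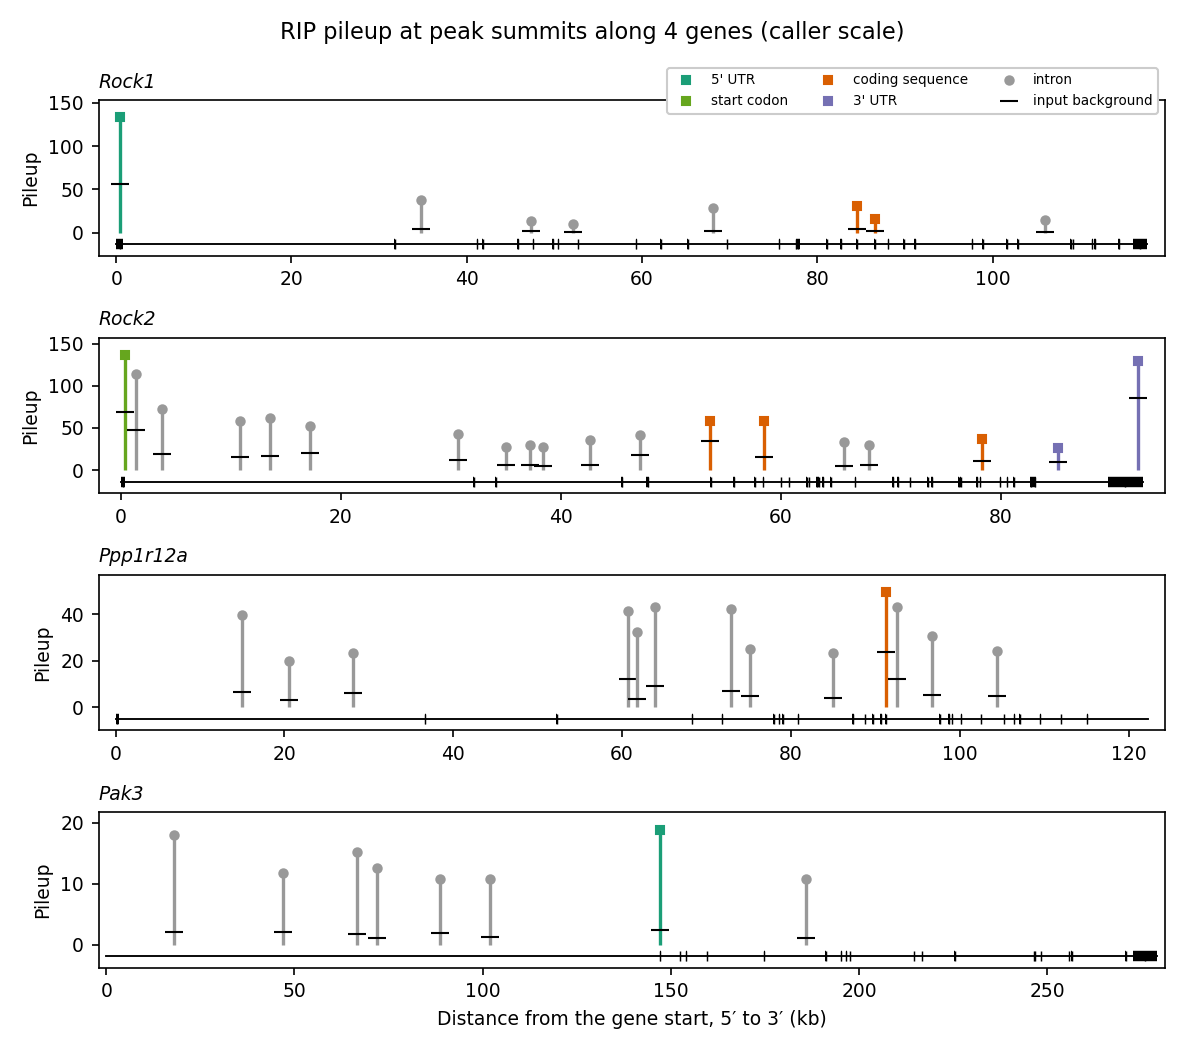
RIP pileup at each peak's summit, on the scale of the caller, along the 4 genes with most peaks, against distance from the gene start in kb, with short black bars for the input background and the exons of the transcript used marked under each plot (short ones widened to be seen). Rock2 shows its tallest intron peaks and backgrounds near the gene start, and Ppp1r12a shows no such slope.

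By element, 7 of the 17 table peaks were in coding sequence, 41.2% (21.6 to 64.0), beside 22.7% (20.7 to 24.9) of all table peaks. Only 1 of the 17, that of Wasf1, was at a stop codon, 5.88% (1.05 to 27.0), beside 15.8% (14.0 to 17.7) of all. The 3′ UTR held 6, 35.3% (17.3 to 58.7), beside 45.0% (42.6 to 47.5). With 17 peaks these intervals are wide, and each of the 3 holds the share of all table peaks.

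Some table peaks were cut by exon edges. Of the 17, 9 lay wholly in exons, 52.9% (31.0 to 73.8), beside 79.8% (77.7 to 81.7) of all table peaks, and these intervals do not overlap. The difference was not tested, and peaks of 1 gene share their transcript: of the 8 that crossed an edge, 6 were among the 7 coding peaks, and 4 were in Rock2. All 6 listed as 3′ UTR lay wholly in an annotated exon. The summit lay in an exon for 15 of 17, 88.2% (65.7 to 96.7), beside 91.6%.

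The 6 peaks in 3′ UTRs had a median fold of 2.17 over a median background of 62.5, beside 3.13 over 16.0 for all 3′ UTR peaks of the table. The 7 coding peaks had 3.72, beside 3.53. The 3 peaks within 600 bp of a gene start, in Rock1, Rock2 and Cfl2, had a GC content of 69.1 to 77.9%, and the other 57 had 28.6 to 51.2%. Those 3 had folds of 1.97 to 3.27.

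Windows reaching 100 bases to either side of the summit were read on the gene's strand for GGAC. It was present in 6 of the 17 table peaks, 35.3% (17.3 to 58.7), beside 709 of 1537, 46.1% (43.6 to 48.6), of all table peaks. The 6 were the Rock1 5′ UTR, the Rock2 start codon and exon 27, Ppp1cb, Cdc42 and Arpc5. On the opposite strand the share was also 35.3%. The count moved with the window: over the whole peak GGAC was in 9 of the 17, 52.9%, beside 52.9% of all table peaks, and within 50 bases of the summit in 3, 17.6%, beside 26.4%. The copy nearest the summit was 3 bp away at the Rock2 start codon, 14 in Arpc5 and 15 in Cdc42, and between 51 and 84 bp in the other 3. The strongest coding peaks of Rock1 and Rock2, and the peaks of Cfl2, Wasf1, Pak3 and Abi2, held no GGAC in this window, which says nothing of other m6A motifs.

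GGACT, which holds GGAC, was in 1 of the 17 table windows, 5.88% (1.05 to 27.0), beside 17.2% of all table windows. Among the 42 intron peaks, GGAC was in 12, 28.6%, and GGACT in 11, 26.2% (15.3 to 41.1). Over the peaks of all gene bodies the shares were 38.9% for GGAC and 15.7% for GGACT. A match in a window is a description and not a measured m6A site.

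In 7 lists of the pathway, 15 of 117 genes had a table peak, or 12.8%, the 10 chosen genes and 5 others. Over the gene body 40, or 34.2%, had a peak. Since the 10 were chosen for a table peak, neither the share with them nor the 5 of 107 without them can be set against that of all genes. The 5 were Arhgap5, a GTPase-activating protein, Diaph2, a formin that elongates unbranched actin, Cdc42bpa, a CDC42-binding kinase also known as MRCK alpha, Rhoj, a GTPase close to CDC42, and Tmsb4x, the actin monomer binder thymosin beta 4. Arhgap5 had a fold of 6.06 (4.47 to 8.03), Diaph2 5.21 (4.15 to 6.47), Rhoj 3.06 (2.12 to 4.28) and Tmsb4x 1.71 (1.53 to 1.91), all in 3′ UTRs. Cdc42bpa had 3.14 (2.66 to 3.68) in the 5′ UTR.

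By role, table peaks were found for 5 of 18 genes in the ROCK and myosin light chain list, 2 of 16 in the PAK, LIM kinase and cofilin list, 1 of 10 Arp2/3 subunits and 2 of 17 WAVE and WASP genes. All of these but Cdc42bpa are among the 10 chosen genes. Of 18 formins, Ena/VASP proteins and monomer binders 2 had a table peak, and of 20 exchange factors and GTPase-activating proteins 1 had one, with none of the 10 in either list. Over gene bodies the counts were 8 of 18 in the formin list and 6 of 20 in the exchange factor list.

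Of a list of 16 related genes outside the 10, Ppp1r12b, Ppp1r12c, Ppp1ca, Ppp1cc, Pak1, Pak2, Pak4, Cfl1, Dstn, Arpc5l, Wasf2, Wasf3, Abi1, Abi3, Rac1 and Rhoa, 0 had a table peak, a count too small to set against 5.81%, and 5 had peaks over the body. The list left out Rock1 and Rock2, which are paralogs of each other with 3 and 6 table peaks, and Rhoj. Ppp1r12b, the paralog of the targeting subunit, had 12 such peaks with a highest fold of 5.84, beside 13 in Ppp1r12a with 7.08. Pak1 had 4 with a highest fold of 6.25, Pak2 had 3 at 6.15, Abi1 had 3 at 4.65 and Rhoa had 2 at 4.52. The table listed Cfl2 and not Cfl1, and Arpc5 and not Arpc5l. The files hold peaks and no expression values, so a paralog that is not transcribed cannot be told from one that is transcribed and not bound. For the same reason the myotube label could not be checked by level. Of 15 myotube markers, Mylpf had a table peak, at 4.22, and Ttn and Mylpf had peaks over the body. Those shares, 6.67% and 13.3%, were near the 5.81% and 15.0% of all protein-coding genes. Of 7 myoblast markers 0 had a table peak, too few genes to set against 5.81%, so nothing is read from either list.

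**Figure D4:**
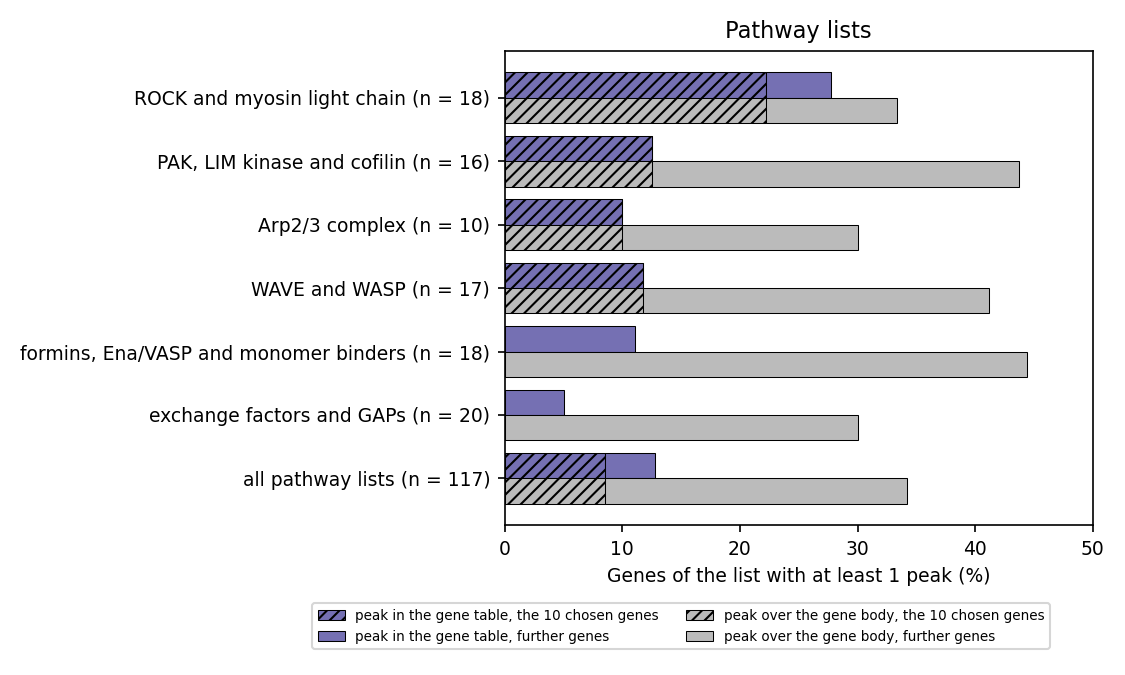
Percent of genes with at least 1 peak in 6 of the pathway lists and in all 7 together, in the gene table (purple) and over the gene body (grey), with the 10 chosen genes hatched and further genes plain. Over all 117 genes the table share was 12.8%, mostly the chosen genes, and the body share was 34.2%.

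Among the 11 other genes with at least 4 table peaks, those most like Rock2 in the number of peaks per element were Cenpf and Phip. The summed absolute difference in counts over 5 elements was 3 for Cenpf and 4 for Phip. At 6 there was a tie of 6 genes, Ankrd12, Cdc73, Rbm26, Tmf1, Trove2 and Zfand5. The highest folds were 9.49 for Cenpf and 9.33 for Phip, and from 2.90 (Zfand5) to 5.96 (Tmf1) among the tied genes, beside 3.72 for Rock2.

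In the authors' deposited table of KEGG pathways, regulation of actin cytoskeleton held 26 genes with a peak of 205 annotated, with 11.9 expected, p = 0.000126 and FDR = 0.0138. All 10 genes are among the 26, and since they were picked from that set the figure is no separate support for them. The median of the highest fold was 3.37 for the 10 and 3.41 for the other 16, beside 3.43 for all genes of the table. The 10 had 17 table peaks and the other 16 had 19. Focal adhesion, in the authors' deposited table, held 6 of the 10 with FDR = 0.0358, and axon guidance held 5 with FDR = 0.294. Vascular smooth muscle contraction held 4 in the authors' deposited table, with FDR = 0.221.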

How the data were processed

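C2C12 myotubes gave 1 YTHDF2 RIP library and 1 input library. Per the series' design text, Bowtie aligned the reads to mm10, and MACS was the peak caller. The submitters' processing notes further name DiffBind, deepTools, HOMER, Picard, Trim Galore and FastQC, without versions or settings. Library steps are worded for DNA, per the labels' protocols.

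Each deposited peak carries, per the file headers, its summit pileup (a coverage signal), a linear ratio called fold enrichment, and −log10 of the p-value and q-value. Their gene table assigns 1541 peaks to 1285 genes and to transcript elements. The authors' deposited KEGG table gives the count of annotated and peak genes and a p-value with its FDR, and their deposited element table gives counts and percent of peaks. The element shares in the report were recounted from the gene table by a rebuilt rule for peaks that touch several elements.

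Pileup values were whole multiples of 0.9 (tolerance 1e-06), read as 1 RIP fragment each. Background was computed as (pileup + 1) / fold − 1. Intervals are exact Poisson for fragments and Wilson for shares, at 95%. Gene bodies and exons came from GENCODE M21 on GRCm38, the build of mm10, with an overlap of at least 1 bp. Of the 1285 genes, 1269 matched by symbol, 12 by synonym and 4 were left out of gene shares. A peak was called intronic if it touched no exon of any transcript. Copies were searched with blastn 2.17.0, sequences were read with pysam 0.24.0 from the RefSeq GRCm38 genome, and intervals used scipy 1.17.1 in Python 3.11.15. The steps were tested on simulated data.

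The 10 genes and the pathway lists were chosen with earlier results of these data known. Named genes were the 10, their close paralogs, all genes of a pathway list with a table peak (up to 6 a list), and the genes most like Rock2 (the rule asked for 3, and the last place was tied). Alternatives were a fold of 4, a q-value of 1e-05, other overlaps, windows and motifs. No comparison of samples was tested, since each side had 1 library.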

Additional observations from a re-analysis of the deposited data

How the results depend on the processing

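A fold enrichment of at least 4 kept 4 of the 10 genes and 5 of the 17 table peaks, 6 of the 15 pathway genes with a table peak (the 10 included), and 33 of the 60 body peaks. The intron share among those 33 was 84.8%, against 70.0% over all 60. A q-value of 1e-05 or less kept 11 of the 17 table peaks. These limits remove peaks by construction. The share of table windows with the longer motif GGACT was 5.88%, against 35.3% for GGAC, which was 52.9% over whole peaks and 17.6% within 50 bases of the summit. Of 55 alternatives over all values, 36 gave the value within its interval or within 1.5 times the count and 19 moved it; these values carry no sign. When all body peaks were used, the highest fold moved for 4 of the 10 genes. Ranking by q-value moved 8 of the 10 genes. No paired analysis was possible because each group had 1 library, and the shared number 1 of the labels pairs nothing. The depth is unknown, folds over the lowest backgrounds rest on 12 to 21 fragments for Abi2, Pak3 and Rock1 exon 20, and the wide intervals limit any order among the genes.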
